A study of Homo sapiens with 72 samples.

Results

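Aldo-keto reductases and carbonyl reductases were followed over a dose series of omaveloxolone in human skin fibroblasts. The 9 genes were AKR1C1, AKR1C2, AKR1C3, AKR1B1, AKR1B10, AKR1A1, AKR7A2, CBR1 and CBR3, taken by symbol from the 23170 genes counted. DRUG-seq, which tags the RNA of each well with a barcode and sequences the 3′ ends of polyA transcripts, gave the counts. The cells, wildtype normal human dermal fibroblasts bought as primary cultures of skin, were kept for 24 h with omaveloxolone or with its solvent DMSO in a 384-well plate. The groups were 4 wells at each of 10 doses (0.0005, 0.002, 0.005, 0.014, 0.04, 0.12, 0.37, 1.11, 3.33 and 10 µM) and 32 wells with DMSO. All 32 carry the DMSO label and were used, although the treatment protocol mentions 16 DMSO wells per plate. No genotype other than wildtype was used. The labels number the wells as biological replicates but name no separate cultures or donors, so p-values measure the spread between wells, which may be technical.

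These enzymes reduce aldehydes and ketones to alcohols with NADPH as the hydrogen donor. The aldo-keto reductases share a barrel-shaped fold, and the carbonyl reductases belong to the short-chain dehydrogenase family. Several of the genes are textbook targets of NRF2, the transcription factor that KEAP1 marks for degradation and that omaveloxolone, a synthetic triterpenoid, releases from KEAP1. In skin and other tissues they act on lipid aldehydes, quinones, steroids, prostaglandins and sugars.

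Close relatives in this family share transcript sequence, and AKR1C2 shared the most. In GENCODE 29 transcripts, 67.4% of the 31-base words in the last 500 bases of AKR1C2 protein-coding transcripts also occurred in transcripts of another gene, 67.1% in AKR1C1. The share was 29.3% for AKR1C1, with 28.2% in AKR1C2, and 27.4% for AKR1C3. It was 20.0% for AKR7A2 (with AKR7L and AKR7A3), 18.1% for AKR1B10 (with AKR1B15 and a pseudogene), 8.51% for AKR1B1 (with pseudogenes) and 0.980% for AKR1A1. CBR1 and CBR3 shared 0 such words near their ends. Each gene's words pool the ends of all its annotated protein-coding transcripts, 4 for AKR1C2, and were matched to any part of other transcripts. They were not weighted by expression, so a share is not the percent of reads that match 2 genes. How the authors' counting treated reads that match 2 genes is not given in the sources used here, so the levels of AKR1C1, AKR1C2 and AKR1C3 are uncertain one by one. Strand use is not given either, so reads of CBR1 and of SETD4, which spans it on the opposite strand, cannot be told apart, nor those of CBR3 and CBR3-AS1, or of AKR1C2 and AL391427.1.

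**Figure D1:**
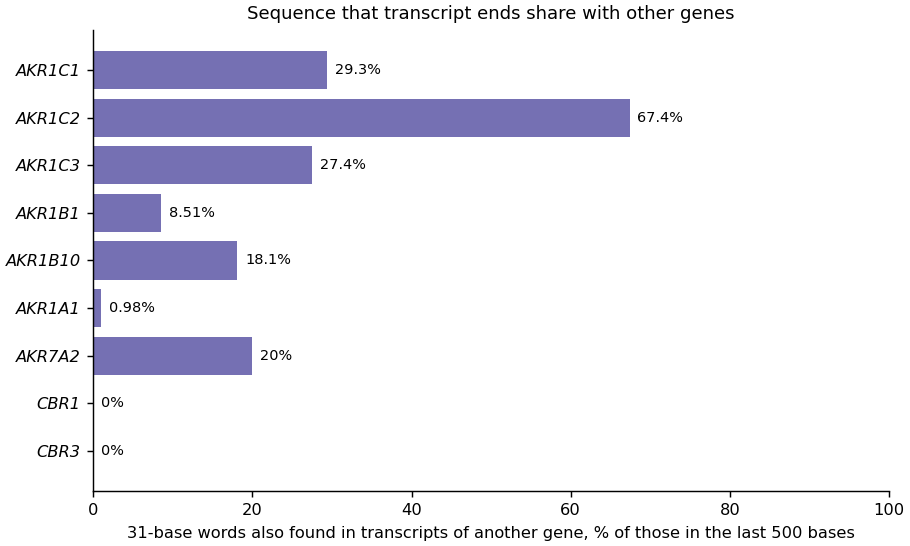
Bars give, for each gene, the percent of 31-base words in the last 500 bases of its protein-coding transcripts that also occur in transcripts of another gene (GENCODE 29). AKR1C2 stands at 67.4%, and CBR1 and CBR3 at 0.

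The start regions of AKR1C1 and AKR1C2 are shown because these neighbours on chromosome 10 are nearly the same upstream of the gene, while their counts did not keep 1 ratio over the doses. The windows run from 250 bases before to 50 after each start (RefSeq, GRCh38.p14), at chr10:4963165-4963464 on the plus strand and chr10:5003808-5004107 on the minus strand. Of 296 aligned positions 288 were identical (97.3%), 4 differed and 4 were gaps. Capitals mark the bases that differ or stand against a gap.
AKR1C1: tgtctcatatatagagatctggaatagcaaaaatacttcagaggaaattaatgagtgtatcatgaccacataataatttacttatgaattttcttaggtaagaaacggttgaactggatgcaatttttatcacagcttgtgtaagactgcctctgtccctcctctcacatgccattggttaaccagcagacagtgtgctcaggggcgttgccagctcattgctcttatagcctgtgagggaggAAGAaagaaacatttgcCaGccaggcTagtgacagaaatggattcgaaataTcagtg
AKR1C2: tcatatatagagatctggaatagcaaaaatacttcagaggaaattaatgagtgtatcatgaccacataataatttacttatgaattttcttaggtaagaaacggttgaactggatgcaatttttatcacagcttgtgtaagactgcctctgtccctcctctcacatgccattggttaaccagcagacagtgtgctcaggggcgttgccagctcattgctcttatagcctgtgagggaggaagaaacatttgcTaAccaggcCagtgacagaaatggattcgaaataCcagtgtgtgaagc

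Windows were found for 7 of the 9 genes, and the 2 AKR1C3 windows were 75.3% to 77.4% identical to those of AKR1C1 and AKR1C2. The core of the antioxidant response element, the NRF2 motif, was searched as TGACNNNGC on both strands. It occurred in 13.35% of 35116 windows of the same length. It occurred once in the CBR1 window, at bases 92 to 100 on the minus strand, and 3 times in each of 2 overlapping AKR7A2 windows. The letters were not in the windows of AKR1A1, AKR1B1, AKR1C1, AKR1C2 or AKR1C3. TGANTCA, the AP-1 motif that a core match can contain, was in 7.709% of all windows and in none of these 7 genes' windows. The CBR1 window, chr21:36069774-36070073 on the plus strand, is shown with the core in capitals.
CBR1: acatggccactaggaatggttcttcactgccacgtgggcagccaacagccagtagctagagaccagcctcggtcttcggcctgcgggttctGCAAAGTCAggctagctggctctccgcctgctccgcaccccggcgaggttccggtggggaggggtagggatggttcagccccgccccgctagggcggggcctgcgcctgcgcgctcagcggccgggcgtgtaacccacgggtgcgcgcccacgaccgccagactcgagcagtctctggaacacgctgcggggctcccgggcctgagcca

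Levels below are CPM, a gene's counts scaled to a common library size with TMM factors, and changes are log2 changes of a dose over DMSO from edgeR's quasi-likelihood fit over all 72 wells. A gene was called where the adjusted p was under 0.05 over the 14264 genes tested. Wells held 4173820 to 8750002 counts from 0.0005 to 0.12 µM, 9311006 to 10386930 at 0.37 µM and 4910842 to 8685535 with DMSO. Higher doses were shallower, with 1432737 to 1709990 counts at 1.11 µM, 132318 to 208739 at 3.33 µM and 25637 to 39396 at 10 µM. Fewer cells and less RNA per cell cannot be told apart in these lysates. All 10 fibroblast markers were present, with a summed level of 33763 to 37945 CPM at 0.37 µM against 67499 to 81701 CPM with DMSO; at 0.12 µM it was 60799 to 63664 CPM, also below every DMSO well. The part of these lower levels in the results at 0.12 and 0.37 µM was not tested. Markers of melanocytes, endothelium and hepatocytes summed to at most 7.41 CPM per list up to 0.37 µM and in DMSO. KRT10 and DSP, the 2 keratinocyte markers counted, summed to 466 to 516 CPM at 0.37 µM and 344 to 586 CPM with DMSO. The immune list, with 4 of 5 genes counted, summed to 205 to 410 CPM at 1.11 µM and 93.2 to 184 CPM with DMSO, and its part in the results at 1.11 µM was not tested.

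At 0.12 µM 7 of the 9 genes were called higher, against 1.31% of all genes tested. These were AKR1C1, AKR1C2, AKR1C3, AKR1B1, AKR1B10, CBR1 and CBR3. AKR1B10 passed the filter on low counts through the doses where it is high, and the CBR3 call was lost without replicate 2. AKR1A1 and AKR7A2 were called higher at no dose in the edgeR fit of all 72 wells. Compared with 0.37 µM, 8 of the 9 genes were lower at 1.11 µM, against 13.4% of all genes tested. AKR1B10 is among the 8, and its fall is given as a description for the reason above. Of the other genes, all but AKR7A2 were lower. In the edgeR fit of all 72 wells no gene of the 9 was called above DMSO at 1.11 µM or beyond. In the test over all doses each of the 9 was called, as were 56.4% of the genes tested.

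The number of genes called higher grew with dose up to 0.12 µM. At 0.0005, 0.002 and 0.005 µM 0 of the 9 were called, while 0.00701%, 0.0561% and 0.0631% of all genes were called higher. Unadjusted p was under 0.05 for 0, 1 and 5 of them, and the DESeq2 Wald test called 0, 0 and 2 higher. At 0.014 µM 4 of 9 were higher, against 0.203% of all genes, and at 0.04 µM 6 of 9, against 0.603%. At 0.12 µM 7 of 9 were higher, against 1.31%, and at 0.37 µM 5 of 9, against 11.2%. AKR1B10 passed the filter on low counts through the doses where it is high; of the other 8 genes 5, 6 and 4 were higher at 0.04, 0.12 and 0.37 µM. AKR7A2 at 0.37 µM was the only gene of the 9 called lower at these doses. Lower calls over all genes made up 0%, 0%, 0.014%, 0.014%, 0.189%, 1.02% and 13.6% from 0.0005 to 0.37 µM. At 1.11 µM 5 of 9 were lower, against 13.2% of all genes, and 0 higher, against 9.76%; unadjusted p was under 0.05 upward for 0, and the Wald test called 0 higher. All treated wells were in rows K and L of the plate. Against the 4 DMSO wells in those rows alone, 0, 3, 3 and 4 genes were higher at 0.014, 0.04, 0.12 and 0.37 µM. The log2 changes at 0.014 µM were then 1.46 for AKR1C1, 1.23 for AKR1C2 and 0.87 for AKR1C3, against 1.36, 1.03 and 0.81 with all DMSO wells. The share of all genes called with these 4 wells is not given here, so their counts cannot be set against the shares above.

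**Figure D2:**
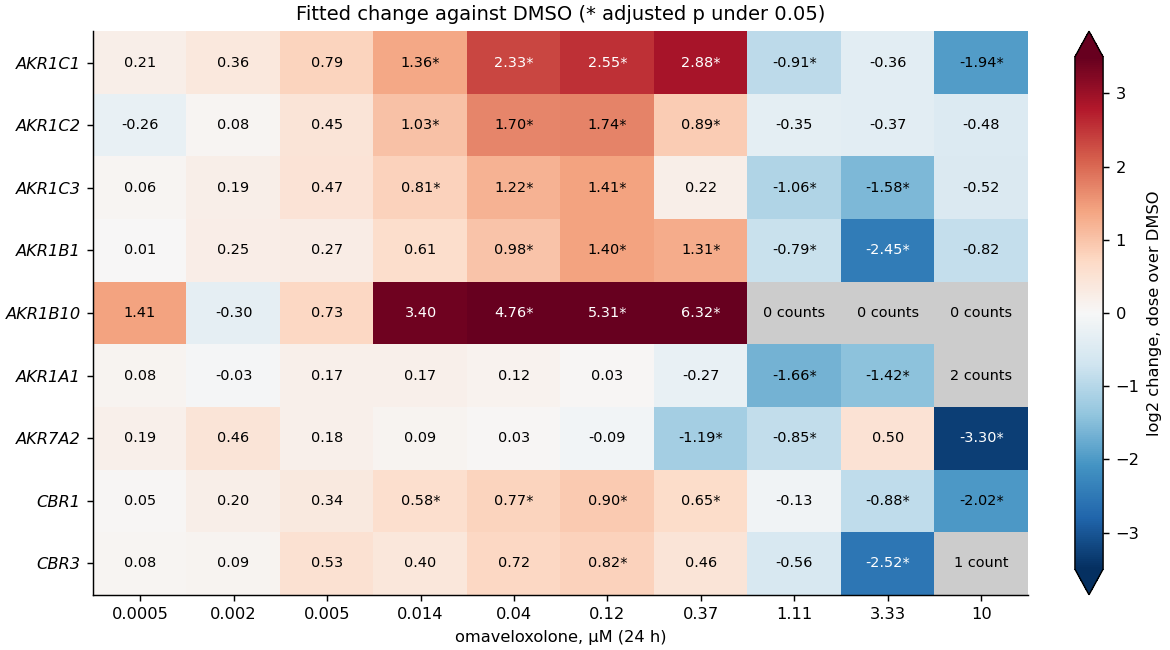
Each cell gives the log2 change over DMSO at 1 dose (columns, µM, low to high) for 1 gene (rows), from edgeR's quasi-likelihood fit, with an asterisk where the adjusted p was under 0.05. Grey cells held 3 counts or fewer over the 4 wells, such as the 0 counts of AKR1B10 from 1.11 µM on, and AKR1C1 reaches its highest value, 2.88, at 0.37 µM.

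AKR1C1, which inactivates progesterone by reduction, lies at chr10:4963253-4983283 on the plus strand (GRCh38, as all gene positions here). Of the 3 AKR1C genes it had the largest log2 change from 0.014 to 0.37 µM. At 0.014 µM the 4 wells held 313, 344, 235 and 321 CPM, at 0.04 µM 584, 665, 478 and 653 CPM, and at 0.12 µM 722, 713, 647 and 681 CPM. DMSO wells ran from 90.5 to 155 CPM with a median of 114 CPM. Every well from 0.005 to 0.37 µM thus lay above all 32 DMSO wells. At 0.37 µM the wells held 974, 732, 988 and 789 CPM, a mean of 871 ± 130 CPM (SD, n = 4) against 118 ± 17.4 CPM with DMSO (n = 32). The log2 changes at 0.014, 0.04, 0.12 and 0.37 µM were 1.36 ± 0.18, 2.33 ± 0.16, 2.55 ± 0.16 and 2.88 ± 0.16 (SE; edgeR adjusted p = 1.05e-07, 9.14e-20, 2.13e-22 and 1.31e-26). At 0.005 µM the change of 0.79 ± 0.19 missed the threshold (edgeR adjusted p = 0.0714), although all 4 wells, at 186 to 241 CPM, were above every DMSO well. It passed at this dose with the DESeq2 Wald test (adjusted p = 1.09e-05), in the edgeR fit of this dose with DMSO alone (adjusted p = 7.54e-06) and without replicate 2 or 4 (adjusted p = 0.00363 and 0.0415). At 1.11 µM 1 well held 37.0 CPM and the others 68.6 to 74.2 CPM, below every DMSO well, a log2 change of -0.91 ± 0.23 (edgeR adjusted p = 0.00171).

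AKR1C2, which inactivates the androgen dihydrotestosterone, lies at chr10:4987400-5018031 on the minus strand. It rose from 0.014 to 0.37 µM, with its highest mean at 0.12 µM. Wells held 299, 309, 311 and 297 CPM at 0.014 µM, 457, 509, 476 and 491 CPM at 0.04 µM and 485, 493, 512 and 499 CPM at 0.12 µM. DMSO wells ran from 112 to 190 CPM with a median of 145 CPM, so the groups did not overlap at these doses. The log2 change was 1.03 ± 0.17, 1.70 ± 0.16 and 1.74 ± 0.16 (SE; edgeR adjusted p = 5.5e-05, 1.27e-13 and 2.92e-14). At 0.37 µM the wells spread over 342, 196, 313 and 254 CPM, still above every DMSO well, with a change of 0.89 ± 0.17 (edgeR adjusted p = 2.05e-05). At 1.11 µM 98.2 to 145 CPM overlapped the DMSO range, and the change of -0.35 ± 0.20 was not called (edgeR adjusted p = 0.2).

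AKR1C3, which makes testosterone from androstenedione and prostaglandin F from other prostaglandins, lies at chr10:5035354-5107686 on the plus strand. It rose from 0.014 to 0.12 µM. At 0.005 µM its change of 0.47 ± 0.15 was not called (edgeR adjusted p = 0.692), but it passed with the DESeq2 Wald test (adjusted p = 0.0114) and in the edgeR fit of this dose with DMSO alone (adjusted p = 5.78e-05). Wells held 957, 1096, 887 and 1080 CPM at 0.04 µM and 1121, 1121, 1055 and 1266 CPM at 0.12 µM. DMSO wells ran from 344 to 509 CPM with a median of 428 CPM. All wells from 0.005 to 0.12 µM were above every DMSO well. Log2 changes of 0.81 ± 0.14, 1.22 ± 0.14 and 1.41 ± 0.14 were found at 0.014, 0.04 and 0.12 µM (SE; edgeR adjusted p = 0.000366, 3.48e-10 and 5.97e-13). At 0.37 µM the wells held 615, 317, 527 and 540 CPM, 3 of them above and 1 below every DMSO well. The change of 0.22 ± 0.15 was not called with TMM scaling (edgeR adjusted p = 0.319). DESeq2 size factors moved the median of all genes at this dose by 0.25 on the log2 scale, and the change of AKR1C3 was then 0.46 (edgeR adjusted p = 0.0119). It was 0.39 without the well at 317 CPM, replicate 2 (edgeR adjusted p = 0.0486). At 1.11 µM 164 to 267 CPM were below every DMSO well, a log2 change of -1.06 ± 0.17 (edgeR adjusted p = 1.99e-06).

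**Figure D3:**
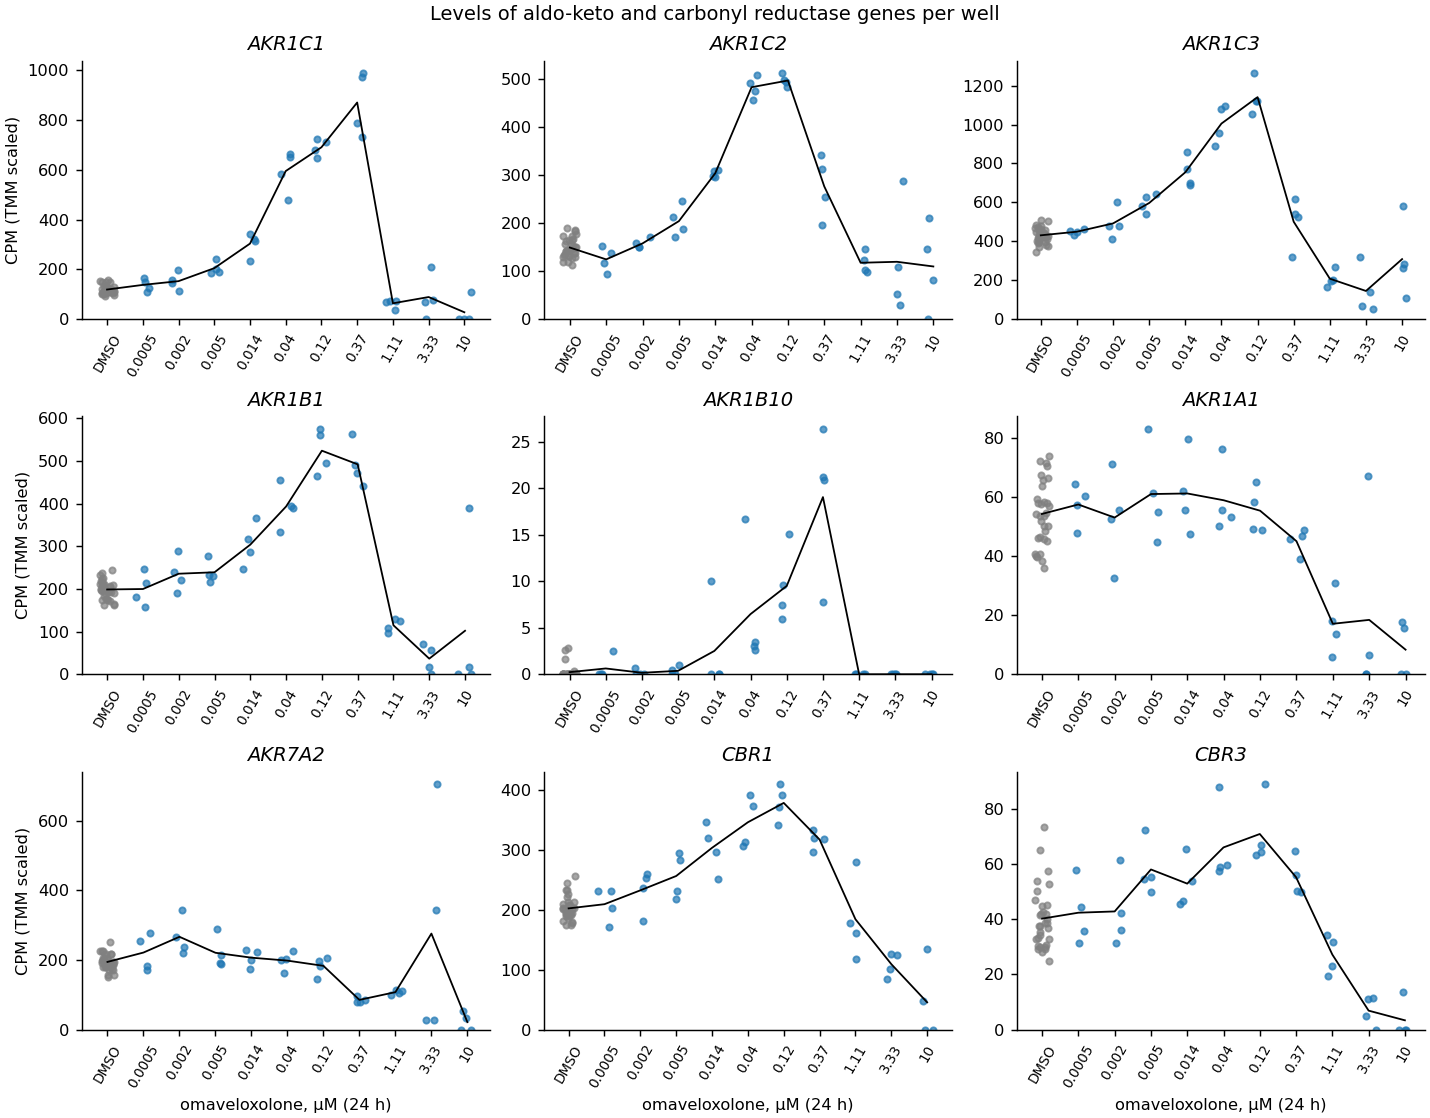
Points are single wells in CPM after TMM scaling, blue for the 4 wells of a dose (µM, low to high) and grey for the 32 DMSO wells; lines join group means. AKR1C3 peaks at 0.12 µM (1055 to 1266 CPM) and AKR1C1 at 0.37 µM (732 to 988 CPM), while AKR7A2 and AKR1A1 show no rise beyond the DMSO range in all 4 wells of any dose.

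The sum of the 3 AKR1C genes passed already at 0.005 µM, where none of them alone did in the edgeR fit of all wells. AKR1C1 and AKR1C3 did so by the Wald test, and all 3 in the edgeR fit of that dose with DMSO alone. The sum does not depend on how reads were divided among these 3 genes. It would lack reads dropped because they matched several genes, and reads shared with AKR1C4 could still affect it. The sum was 1005 ± 71.7 CPM at 0.005 µM against 697 ± 50.7 CPM with DMSO, a log2 change of 0.53 ± 0.10 (SE; edgeR adjusted p = 0.00208). It passed at this dose without each single well in turn. At 0.12 µM the sum reached 2329 ± 94.9 CPM, a change of 1.74 ± 0.09 (edgeR adjusted p = 2.37e-28), and at 0.37 µM it was 1647 ± 305 CPM, a change of 1.24 ± 0.09 (edgeR adjusted p = 1.23e-19). It fell to 387 ± 35.5 CPM at 1.11 µM, a change of -0.85 ± 0.11 (edgeR adjusted p = 4.24e-09).

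Within wells, the counts of AKR1C1 rose relative to those of AKR1C2 and AKR1C3 from 0.04 to 0.37 µM. The mean log2 ratio of AKR1C1 to AKR1C2 counts was 0.29 at 0.04 µM, 0.47 at 0.12 µM and 1.68 at 0.37 µM, and -0.33 with DMSO. At 0.37 µM the 4 wells ran from 1.51 to 1.90 and the DMSO wells from -0.85 to 0.40, so the ratio was 4.02-fold higher with no overlap (exact two-sided permutation test, adjusted p = 5.66e-05 over 20 tests; the smallest unadjusted p the test can give is 1.7e-05). The differences of 0.62 at 0.04 µM and 0.81 at 0.12 µM passed too (exact permutation adjusted p = 0.000407 and 9.7e-05). AKR1C1 to AKR1C3 rose by 1.11, 1.15 and 2.70 on the log2 scale at 0.04, 0.12 and 0.37 µM (exact permutation adjusted p = 5.66e-05 at each). At 1.11 µM that ratio, -1.74 against -1.87 with DMSO, was not called (exact permutation adjusted p = 0.443); without replicate 3 the difference was 0.34 and passed (adjusted p = 0.0306). AKR1C2 to AKR1C3 differed from DMSO by 0.49, 0.34, 0.69 and 0.72 at 0.04, 0.12, 0.37 and 1.11 µM (exact permutation adjusted p = 0.000127, 0.00439, 5.66e-05 and 0.000566). The ratio of AKR1C1 to AKR1C2 was lower than with DMSO at 1.11 µM, a difference of -0.59 (exact permutation adjusted p = 0.0096), and this call was lost without replicate 3 (adjusted p = 0.155). A ratio shows unequal change of 2 genes and is subject to the shared sequence given above.

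**Figure D4:**
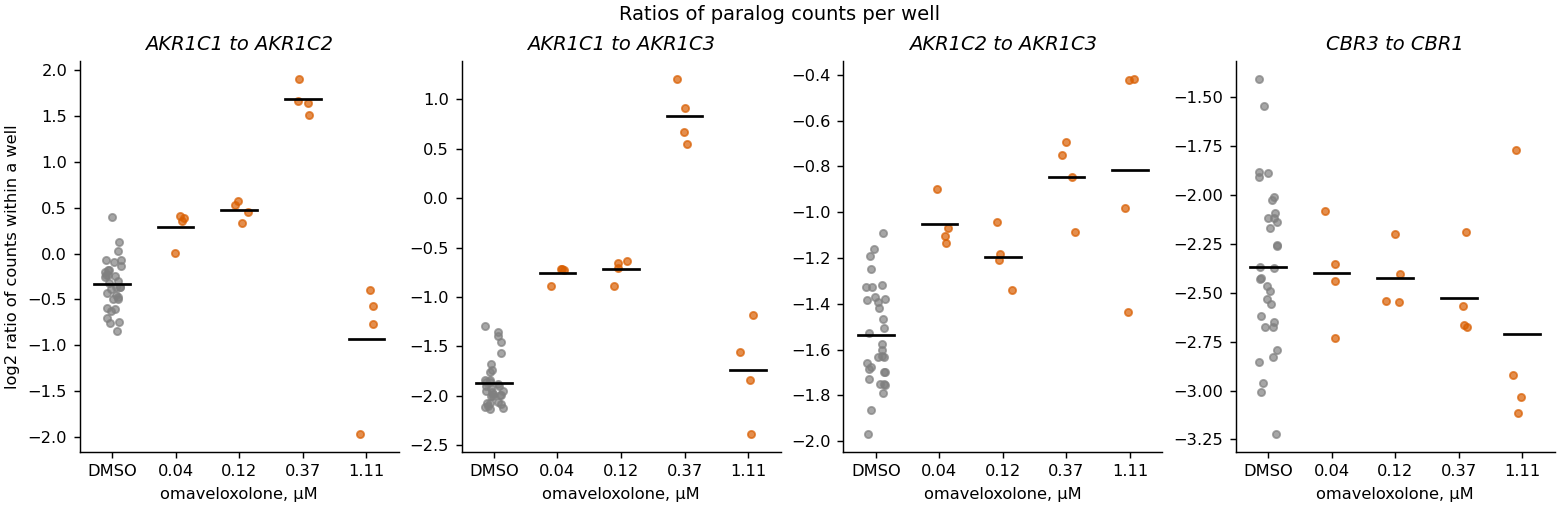
Points are log2 ratios of 2 genes' counts within a well, with 0.5 added to each count, at 4 doses (orange, µM, low to high) and in 32 DMSO wells (grey); bars are group means. The AKR1C1 to AKR1C2 ratio runs from 1.51 to 1.90 at 0.37 µM against -0.85 to 0.40 in DMSO, whereas the CBR3 to CBR1 ratios overlap the DMSO range at each dose.

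AKR1C4, a member of the same gene family best known from liver, had at most 17 counts over the 4 wells of any dose up to 0.12 µM. It had 17 to 93 counts in each of the 4 wells at 0.37 µM, 265 in all, against 19 counts in 6 of the 32 DMSO wells. It passed the filter on low counts through that dose, so its counts are given as a description. It shared 16.1% of the end words of AKR1C3 and 3.13% of those of AKR1C1, so they carry the same uncertainty.

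AKR1B1 is aldose reductase, which turns glucose to sorbitol in the first step of the polyol route, and lies at chr7:134442350-134459284 on the minus strand. It rose at 0.04, 0.12 and 0.37 µM. Wells held 394, 456, 333 and 390 CPM at 0.04 µM, 495, 576, 464 and 562 CPM at 0.12 µM and 491, 442, 473 and 563 CPM at 0.37 µM. DMSO wells ran from 163 to 245 CPM with a median of 198 CPM. All 4 wells lay above every DMSO well from 0.014 to 0.37 µM. Its log2 change was 0.98 ± 0.19, 1.40 ± 0.18 and 1.31 ± 0.18 at 0.04, 0.12 and 0.37 µM (SE; edgeR adjusted p = 0.000419, 1.32e-08 and 1.37e-08). At 0.014 µM the change of 0.61 ± 0.19 was not called (edgeR adjusted p = 0.406), but it passed in the edgeR fit of this dose with DMSO alone (adjusted p = 1.2e-05) and with the DESeq2 Wald test (adjusted p = 7.91e-06). It fell to 95.8 to 131 CPM at 1.11 µM, below every DMSO well, a change of -0.79 ± 0.23 (edgeR adjusted p = 0.00637).

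AKR1B10, which reduces retinal and lipid aldehydes and is best known from intestine and tumours, lies at chr7:134527592-134541408 on the plus strand. It was almost absent without the compound and was counted in all wells at 0.04, 0.12 and 0.37 µM. With DMSO 4 of 32 wells had any count, 41 counts in all and at most 2.79 CPM in a well. Wells held 3.08, 16.7, 2.64 and 3.44 CPM at 0.04 µM, 5.96, 15.0, 7.40 and 9.60 CPM at 0.12 µM and 21.2, 7.73, 26.4 and 20.9 CPM at 0.37 µM. The mean of 19.0 ± 7.95 CPM at 0.37 µM was 83.7-fold the DMSO mean of 0.228 ± 0.705 CPM. All 4 wells at 0.12 and at 0.37 µM exceeded every DMSO well, as did 3 of 4 at 0.04 µM. Fitted log2 changes were 4.76 ± 0.93, 5.31 ± 0.92 and 6.32 ± 0.91 (SE; edgeR adjusted p = 0.00085, 3.69e-05 and 5.49e-08). The gene entered the fit through these doses, so these values are a description. Replicate 2 decided the call at 0.04 µM: without it the change was 3.68 (edgeR adjusted p = 0.119). The DESeq2 Wald test did not call the gene at 0.04 µM (adjusted p = 0.498) or 0.12 µM (adjusted p = 0.225). At 1.11 µM 0 counts were found in 4 wells, at least 33.6-fold lower than the mean at 0.37 µM against a floor of 3 counts over the group. That floor, 0.567 CPM, lies above the DMSO mean, so AKR1B10 at 1.11 µM and DMSO could not be told apart at this depth.

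Relative to AKR1B1, AKR1B10 was higher within wells at these doses, which is given as a description for the same reason. The log2 ratio of AKR1B10 to AKR1B1 counts in a well differed from DMSO by 4.43, 4.94 and 5.98 at 0.04, 0.12 and 0.37 µM (exact permutation adjusted p = 0.000566, 0.000226 and 5.66e-05), with sizes that depend on the 0.5 added to counts of 0. At 1.11 µM the ratio differed from DMSO by 2.56 (exact permutation adjusted p = 0.0101). AKR1B10 had 0 counts there, so this value rests on the 0.5 added and on the AKR1B1 counts, and shows no rise of AKR1B10. AKR1B15, which shares 14.7% of the end words of AKR1B10, had 132 counts in 4 wells at 0.37 µM and 241 counts in 32 DMSO wells. Its log2 change of 1.76 ± 1.00 was not called (edgeR adjusted p = 0.2).

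CBR1, the main cytosolic carbonyl reductase of prostaglandins, quinones and anthracycline drugs, lies at chr21:36069941-36073166 on the plus strand. It rose at 0.014, 0.04, 0.12 and 0.37 µM. Wells held 306, 373, 313 and 392 CPM at 0.04 µM, 391, 410, 371 and 341 CPM at 0.12 µM and 334, 297, 319 and 318 CPM at 0.37 µM. DMSO wells ran from 174 to 256 CPM with a median of 198 CPM, and none reached the wells of these 3 doses. CBR1 changed by 0.77 ± 0.14, 0.90 ± 0.14 and 0.65 ± 0.14 on the log2 scale (SE; edgeR adjusted p = 0.000122, 1.08e-06 and 0.000157). At 0.014 µM it was 0.58 ± 0.14 (edgeR adjusted p = 0.0395). Size factors (adjusted p = 0.0953) ended that call, as did fits without replicate 1, 2 or 4 (edgeR adjusted p = 0.163, 0.225 and 0.0718). At 1.11 µM wells held 161, 178, 118 and 279 CPM, 1 of them above and 2 below the DMSO range, and the change of -0.13 ± 0.15 was not called (edgeR adjusted p = 0.541).

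CBR3, a close relative of CBR1 with a narrower set of substrates, lies at chr21:36134912-36146566 on the plus strand. Up to 1.11 µM it was called at 0.12 µM alone, and 1 well decided the call. Wells held 67.0, 89.1, 63.4 and 64.3 CPM at 0.12 µM against 24.8 to 73.4 CPM with DMSO (median 38.0 CPM). Only the well at 89.1 CPM exceeded every DMSO well. The log2 change was 0.82 ± 0.20 (SE; edgeR adjusted p = 0.00712), and without that well, replicate 2, it was 0.69 (edgeR adjusted p = 0.109). The changes of 0.72 ± 0.20 at 0.04 µM and 0.46 ± 0.20 at 0.37 µM were not called (edgeR adjusted p = 0.0688 and 0.0915), while the DESeq2 Wald test called both (adjusted p = 0.0302 and 0.000778). With size factors the change at 0.37 µM was 0.72 and passed (edgeR adjusted p = 0.00326). The CBR3 to CBR1 ratio within wells differed from DMSO by -0.03, -0.06, -0.16 and -0.34 on the log2 scale at 0.04, 0.12, 0.37 and 1.11 µM, and none of the 4 passed (exact permutation adjusted p = 0.875, 0.832, 0.516 and 0.191). Without replicate 3 the difference at 1.11 µM was -0.66 and passed (exact permutation adjusted p = 0.0165).

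AKR7A2, which reduces succinic semialdehyde and aflatoxin aldehydes, lies at chr1:19303965-19312146 on the minus strand. In the edgeR fit of all wells it was not called up to 0.12 µM and was lower at 0.37 µM, where AKR1C1, AKR1C2, AKR1B1, AKR1B10 and CBR1 were higher. At 0.002 µM its change of 0.46 ± 0.22 (edgeR adjusted p = 0.908) passed when that dose was fitted with DMSO alone (adjusted p = 0.0249). Wells held 184, 205, 146 and 197 CPM at 0.12 µM and 96.9, 80.3, 78.9 and 85.2 CPM at 0.37 µM, against 150 to 251 CPM with DMSO (median 194 CPM). All 4 wells at 0.37 µM lay below every DMSO well. Its log2 change was -0.09 ± 0.23 at 0.12 µM (SE; edgeR adjusted p = 0.939), -1.19 ± 0.25 at 0.37 µM (adjusted p = 0.000121) and -0.85 ± 0.25 at 1.11 µM (adjusted p = 0.00818). The 4 wells at 1.11 µM, 99.8 to 115 CPM, were also below every DMSO well. Its relatives AKR7A3 and AKR7L had 10 counts and 1 count over the 4 wells at 0.37 µM and 155 and 61 counts over 32 DMSO wells.

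AKR1A1, the widely expressed aldehyde reductase, lies at chr1:45550543-45570049 on the plus strand. It was not called at any dose up to 0.37 µM, with log2 changes between -0.27 ± 0.25 and 0.17 ± 0.24 (SE). Wells held 48.7, 49.3, 58.1 and 65.2 CPM at 0.12 µM and 48.8, 38.9, 46.7 and 45.6 CPM at 0.37 µM, all inside the DMSO range of 35.9 to 73.9 CPM (median 53.9 CPM). At 1.11 µM wells held 30.9, 17.9, 5.88 and 13.6 CPM from 7 to 40 counts each, all below every DMSO well. The log2 change there was -1.66 ± 0.30 (edgeR adjusted p = 1.83e-05).

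No single step between neighbouring doses up to 0.12 µM was called for any of the 9 genes, with all 72 wells in the edgeR fit. Unadjusted p was under 0.05 for 0, 0, 2, 3 and 0 genes, all upward, in the steps to 0.002, 0.005, 0.014, 0.04 and 0.12 µM; the largest was AKR1C1 at 0.04 over 0.014 µM, with a log2 difference of 0.97. Without the wells at 3.33 and 10 µM this step passed for AKR1C1 (edgeR adjusted p = 0.000315) and for AKR1C2, with a difference of 0.67 (adjusted p = 0.0289). In these 5 steps 0%, 0%, 0%, 0.00701% and 0.00701% of all genes were called higher, and 0%, 0%, 0%, 0% and 0.00701% lower. From 0.12 to 0.37 µM 3 of 9 genes were lower, against 5.6% of all genes, and 0 higher, against 2.52% (0 upward at an unadjusted p under 0.05). The 3 were AKR1C3 by -1.19 ± 0.21, AKR7A2 by -1.10 ± 0.30 and AKR1C2 by -0.85 ± 0.25 (SE; edgeR adjusted p = 1.97e-05, 0.0115 and 0.0174). Size factors ended the calls of AKR7A2 (adjusted p = 0.08) and AKR1C2 (adjusted p = 0.163), and the AKR1C2 call was also lost without replicate 2 (edgeR adjusted p = 0.0824) or 4 (adjusted p = 0.0507). AKR1C1 and AKR1B10 did not pass in this step in spite of their higher means, at 0.33 ± 0.26 and 1.00 ± 1.63 (edgeR adjusted p = 0.522 and 0.802).

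At 1.11 µM 8 of the 9 genes were lower than at 0.37 µM, against 13.4% of all genes, and 0 higher, against 12.1% (0 upward at an unadjusted p under 0.05). AKR1B10 is among the 8. It passed the filter on low counts through doses such as 0.37 µM, so its fall is given as a description. Of the other genes, all but AKR7A2 were lower. AKR1C1 changed most among those with counts, by -3.79 ± 0.30 on the log2 scale, and AKR1B1 by -2.10 ± 0.29 (SE; edgeR adjusted p = 2.27e-17 and 1.54e-08). AKR1A1, AKR1C3, AKR1C2, CBR3 and CBR1 changed by -1.39, -1.27, -1.24, -1.02 and -0.78 (edgeR adjusted p = 0.00181, 2.23e-06, 9.48e-05, 0.0068 and 0.00187). The call of CBR3 was lost without replicate 1 (edgeR adjusted p = 0.0513). AKR7A2 changed by 0.34 ± 0.31 and was not called (edgeR adjusted p = 0.452). Wells at 1.11 µM averaged 0.235-fold the mean total count of DMSO wells, against 1.48-fold at 0.37 µM, and the part of this loss in the changes was not tested.

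At 3.33 and 10 µM the 9 genes rested on few counts. Over 4 wells each had between 0 and 194 counts at 3.33 µM and between 0 and 75 at 10 µM. At 3.33 µM AKR1C3, AKR1B1, AKR1A1, CBR1 and CBR3 were lower, 5 of 9 against 32.9% of all genes, and 0 of 9 were higher, against 7.35% (1 at an unadjusted p under 0.05, and 1 by the Wald test, AKR7A2). Changes included log2 values of -0.88 ± 0.20 for CBR1 and -1.58 ± 0.21 for AKR1C3 (SE; edgeR adjusted p = 0.000223 and 3.94e-09). AKR7A2 held 123, 4, 61 and 6 counts in the 4 wells, and its change of 0.50 ± 0.25 turned to -0.54 without replicate 1 (edgeR adjusted p = 0.102 and 0.13), while it passed without replicate 2 at 0.90 or 4 at 0.89 (adjusted p = 0.00201 and 0.00202). At 10 µM 5 of 9 genes were called lower, against 31.8% of all genes, and 2 with size factors; 0 were higher, against 3.36% (0 at an unadjusted p under 0.05 and 0 by the Wald test). At 3.33 over 1.11 µM AKR7A2 was higher by 1.35 (1 of 9, against 7.12%), but by 0.29 without replicate 1 (edgeR adjusted p = 0.603), and AKR1B1, CBR1 and CBR3 were lower (3 of 9, against 27.6%), CBR1 no longer without replicate 4 (adjusted p = 0.111). At 10 over 3.33 µM AKR1B1 and AKR1C3 were higher (2 of 9, against 5.58%) and AKR7A2, AKR1C1 and CBR1 lower (3 of 9, against 15.3%). The AKR1B1 difference there, 1.63, was -2.13 without replicate 2, and the calls of AKR1C1 and CBR1 were lost with size factors (edgeR adjusted p = 0.553 and 0.983) and without replicate 1, 3 or 4. AKR1C3 kept counts in all 4 wells at 10 µM (16, 8, 33 and 18), with a change of -0.52 ± 0.22 that was not called (edgeR adjusted p = 0.0534) and of 0.38 with size factors. AKR1A1 had 2 counts and CBR3 1 count in all at 10 µM, 0.145 (exact 95% counting interval 0.0176 to 0.525) and 0.098 (0.00248 to 0.546) of the DMSO level.

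Other genes of the family and of the routes these enzymes serve were counted from fixed lists at 0.12 µM and 0.37 µM. Of 7 other aldo-keto reductase genes tested, 0 were higher or lower at 0.12 µM by edgeR and 0 by the Wald test. At an unadjusted p under 0.05, 2 were higher and 1 lower, and the median log2 change was 0.68. At 0.37 µM AKR1C4 alone was called, higher, 1 of 7 against 11.2% of all genes. AKR1C4 passed the filter on low counts through that dose, so its call is given as a description. Among 36 other carbonyl, quinone and enone reductases 3 were higher and 1 lower at 0.12 µM, against 1.31% and 1.02% of all genes. These were NQO1, the quinone reductase, PTGR1, which reduces enones, and NQO2, with DHRS3, a retinal reductase, lower. PTGR1 reached 647 ± 63.6 CPM at 0.12 µM against 123 ± 23.0 CPM with DMSO, a log2 change of 2.40 ± 0.13 (SE; edgeR adjusted p = 1.46e-25). At 0.37 µM 9 were higher and 4 lower, against 11.2% and 13.6% of all genes. The median log2 change of this list was 0.08 at 0.12 µM and 0.16 at 0.37 µM, against -0.07 and -0.14 over all genes tested.

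Among enzymes that supply NADPH, PGD, TKT, TALDO1 and ME1 were higher at 0.12 µM. PGD, which yields NADPH in the pentose phosphate route, reached 1014 ± 105 CPM at 0.12 µM against 188 ± 24.8 CPM with DMSO, a log2 change of 2.43 ± 0.15 (SE; edgeR adjusted p = 2.2e-22). At 0.37 µM PGD, TALDO1 and ME1 were higher, while TKT was lower, with a log2 change of -0.92 ± 0.15 (edgeR adjusted p = 1.54e-06). Of 17 aldehyde dehydrogenases, which oxidise aldehydes instead of reducing them, ALDH3A1 and ALDH3A2 were higher at 0.12 µM, against 1.31% of all genes, and 2 were higher and 5 lower at 0.37 µM, against 11.2% and 13.6%.

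Genes of prostaglandin synthesis, breakdown, transport and receptors were lower where they were called at 0.12 µM. There 0 of 15 were higher (0 at an unadjusted p under 0.05 and 0 by the Wald test), and the 2 that were lower were PTGIS, prostacyclin synthase, and PTGES, an inducible prostaglandin E synthase, against 1.02% of all genes. PTGIS held 104 ± 17.3 CPM at 0.12 µM and 33.8 ± 5.05 CPM at 0.37 µM, and 347 ± 43.1 CPM with DMSO. Its log2 change was -1.74 ± 0.23 at 0.12 µM and -3.36 ± 0.26 at 0.37 µM (SE; edgeR adjusted p = 2.97e-08 and 2.47e-18). At 0.37 µM 1 was higher and 6 lower, against 11.2% and 13.6% of all genes, with a list median of -1.30 against -0.14 over all genes. Of 8 polyol and methylglyoxal genes, 0 were called at 0.12 µM by edgeR, 1 by the Wald test and 1 at an unadjusted p under 0.05. At 0.37 µM 2 were higher, HAGH and TPI1, and 1 lower, FN3KRP, against 11.2% and 13.6% of all genes. TPI1, a glycolytic isomerase, had 323 ± 45.8 CPM at 0.37 µM against 209 ± 28.3 CPM with DMSO (log2 change 0.63 ± 0.13, edgeR adjusted p = 0.000104). HAGH, a glyoxalase, was higher with 180 ± 12.6 CPM against 49.4 ± 11.2 CPM with DMSO (log2 change 1.86 ± 0.21, edgeR adjusted p = 1.32e-11).

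The dose profiles of the 9 genes were compared with 7963 other genes by Pearson's r of group-mean log2 CPM over 9 groups, DMSO and 0.0005 to 1.11 µM. The values describe these wells and carry no test, since the groups share 1 scaling and differ in depth. AKR1A1, AKR1B10 and CBR3 were called at fewer than 2 doses or had too few counts for this comparison. The profile of AKR1C1 was most like that of TXNRD1, thioredoxin reductase (r = 0.997), then TALDO1 (0.992) and PIR (0.989). TXNRD1 held 1792 ± 240 CPM at 0.37 µM and 216 ± 86.8 CPM at 1.11 µM, and 333 ± 41.3 CPM with DMSO. AKR1B1 was most like GAPDH (0.992), TALDO1 (0.988) and DYNLL1 (0.983), and CBR1 most like EPHX1 (0.983), TALDO1 (0.974) and PIR (0.973). AKR1C2 was nearest to CUTC (0.972), NLN (0.958) and EPHX1 (0.951), and AKR1C3 to TLK1 (0.975), RNH1 (0.975) and MYBBP1A (0.963). Pearson's r does not weigh the size of a change. At 0.12 µM the log2 change was 0.44 for GAPDH and 0.36 for DYNLL1, against 1.40 for AKR1B1. DYNLL1, NLN, RNH1 and MYBBP1A were called at no dose up to 1.11 µM. AKR7A2 was nearest to SIGIRR (0.990), PPP1R3B (0.988) and TNRC18 (0.985). Among the other 6 genes AKR1B1 and AKR1C1 had the highest r, 0.984, while AKR7A2 and AKR1C1 had -0.19.

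DMSO wells lay in plate columns 2 and 23, apart from the treated wells. Between column 23 and column 2 none of the 8 genes tested passed (edgeR adjusted p from 0.378 to 0.949, log2 differences from -0.14 to 0.11), and unadjusted p was above 0.05 for each. AKR1B10 had too few counts for this test.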

How the data were processed

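DRUG-seq counts of 72 wells were used, 4 at each of 10 omaveloxolone doses and 32 with DMSO. The authors deposited raw counts per gene and well, made with kallisto and bustools on GRCh38 per the submitters' processing notes. Tool versions, annotation, strand, collapsing of molecular identifiers and the handling of shared reads are not given in the sources used here, and intervals and floors (3 counts) cover counting error only. All wells matched a sample by well position, and 0 columns of other samples were present. Of 23170 gene IDs, 23078 had a GENCODE 29 entry and 23153 a symbol.

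Counts were fitted with edgeR 4.0.16 (R 4.3.3): TMM scaling, a filterByExpr minimum of 10, robust quasi-likelihood, Benjamini-Hochberg adjustment within a comparison over 14264 genes, threshold 0.05. The standard error is the log2 change divided by the square root of F. All 9 genes passed the filter; AKR1B10, at 0 in most wells, passed through the doses where it is high. A pseudogene row with 1.97 to 5.70% of counts in DMSO wells and 52.8 to 61.4% at 10 µM was left out of totals and tests. The procedure was tested on simulated counts. Levels are CPM, mean ± SD. Ratios within wells were tested by exact permutation, with 20 tests adjusted together. DESeq2 1.42.0 gave size factors and a Wald test. Sequence words were counted with Python 3.11.15, promoters aligned with Biopython 1.88. No 2 wells were copies of each other (smallest chi-square per degree of freedom 16.8).

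The 9 genes, gene lists and tests were chosen with earlier results of these data known. Besides the 9, genes named are the 3 most like each gene called at 2 or more doses up to 1.11 µM with at least 10 CPM, and from each list the 2 with the smallest p at 0.12 µM and at least 10 CPM. NQO2, DHRS3, FN3KRP, TKT, TALDO1, ME1, ALDH3A1 and the relatives AKR1C4, AKR1B15, AKR7A3 and AKR7L were named after their values were seen. The counts of the NADPH supply list are not reported here. Alternatives were other scaling, filter, test, DMSO wells, doses fitted, plate side, a replicate block and leaving out each replicate; keeping the pseudogene row was added after seeing the data.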

Additional observations from a re-analysis of the deposited data

Results flagged for a closer look

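In 87 groups of 4 wells, 11 held a well far from the other 3, where chance gives about 1 in 20. AKR1B10 gave 4 of them, in groups where most wells had few or no counts: 2.50 CPM at 0.0005 µM, 0.634 CPM at 0.002 µM and 10.0 CPM at 0.014 µM, each beside 3 wells at 0, and 16.7 CPM at 0.04 µM beside 2.64 to 3.44 CPM. CBR3 gave 88.1 CPM at 0.04 µM beside 57.6 to 59.8 CPM, 89.1 CPM at 0.12 µM beside 63.4 to 67.0 CPM and 13.5 CPM at 10 µM beside 3 wells at 0. AKR1C1 had a low well at 1.11 µM, 37.0 CPM beside 68.6 to 74.2 CPM, and a well at 108 CPM beside 3 wells at 0 at 10 µM. AKR1A1 had 67.1 CPM at 3.33 µM beside 0 to 6.53 CPM, and AKR1B1 had 390 CPM at 10 µM beside 0 to 17.5 CPM.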

How the results depend on the processing

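Of 38 values of single genes called in the main analysis, all 38 kept direction and threshold without the filter on low counts, with plate side as covariate, when each dose was fitted with DMSO alone, and with the pseudogene row kept; the Wald test kept 33 of 38, and size factors 67 of 76 with sums and neighbouring doses included. Leaving out replicate 1, 2, 3 or 4 kept 86, 86, 87 and 86 of 91, and adding 1 to counts kept 15 of 15 ratio calls. The 15 include AKR1B10 to AKR1B1 at 1.11 µM, which rests on the added count because AKR1B10 had 0 counts there. The replicate numbers did not pair dose wells with DMSO wells (correlation with the same-numbered DMSO well -0.315 to 0.306, best match to the own number in 7 of 40 wells). Pairing between doses was not tested. The numbers do not follow plate position, since replicate 1 lay in column 10 at 0.005 µM and in column 19 at 0.014 µM. Fits with the block or without a replicate therefore mix plate positions. With the replicate block 40 of 76 calls held. The block fit used 44 wells; the same 44 wells without it kept 32 of 58, and the 4 DMSO wells in rows K and L 35 of 53. These hold fewer DMSO wells by construction.

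Counts of genes among the 9 moved as follows, without the shares of all genes, which are not given here for these settings. Higher at 0.002 µM there was 1 with the dose fitted with DMSO alone. Higher at 0.005 µM there were 1 without the filter, 2 without the 3.33 and 10 µM wells, 3 with the dose fitted with DMSO alone, 2 with the Wald test and 0 to 1 without single replicates. With K and L wells, with the replicate block and with the same 44 wells unblocked, the higher counts were 0, 0 and 0 at 0.014 µM, 3, 1 and 2 at 0.04 µM and 3, 3 and 3 at 0.12 µM; at 0.37 µM the block gave 2 and the 44 wells 2. Lower counts under these settings were 0, 0 and 0 at 0.37 µM and 2, 2 and 2 at 1.11 µM. Higher at 3.33 µM there was 1 with the Wald test and 0 to 1 without single replicates. Lower at 10 µM there were 2 with size factors and 2 with the Wald test.

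Directions turned mainly at the shallow doses, and the cause was not tested. At 10 µM over DMSO size factors gave 0.025 for AKR1B1, 0.38 for AKR1C3, 0.22 for the AKR1C sum and 0.024 for the AKR1B sum, and the Wald test 0.083 and 0.35 for AKR1B1 and AKR1C3. Without single replicates the 3.33 µM change over DMSO ran from -0.54 to 0.90 for AKR7A2, -1.22 to 0.0016 for AKR1C2 and -1.28 to 0.042 for AKR1C1. At 3.33 over 1.11 µM it ran from -3.19 to 1.11 for AKR1A1, -0.93 to 0.47 for AKR1C2 and -0.29 to 0.99 for AKR1C1, and at 10 over 3.33 µM from -2.13 to 2.49 for AKR1B1. The AKR1C1 to AKR1C3 ratio at 1.11 µM ran from -0.056 to 0.34, and CBR3 to CBR1 at 0.04 µM from -0.14 to 0.076, and was 0.013 with K and L wells.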
